A study of Mus musculus with 2 samples.

Results

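Foxp3 regulatory T cells of MC38 tumors were taken from single-cell RNA sequencing as cells with at least 1 UMI of *Foxp3* and at least 1 UMI of *Cd3e*, *Cd3d* or *Cd3g*, without a UMI of *Cd8a* or *Cd8b1* and with at most 2 UMIs of *C1qa*, *C1qb* and *C1qc* together. A UMI is the molecular tag that marks 1 captured RNA molecule. The rule was applied once barcodes under 500 genes or under 1000 UMIs, or above 15% mitochondrial UMIs, had been left out. It found 95 Foxp3 T cells among 25402 cells, namely 45 of 13542 from the *Lmo7*+/+ library and 50 of 11860 from the one labelled *Lmo7*-/-. *Foxp3* (ENSMUSG00000039521, GRCm38 chromosome X, 7573644 to 7595245) encodes the transcription factor that defines regulatory T cells. The cells were chosen by their UMIs of *Foxp3*, the *Cd3* genes, *Cd8a*, *Cd8b1* and the C1q genes, so values of these genes are a description.

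MC38, a mouse colon cancer cell line, was grown under the skin of female mice on the C57BL/6 background, aged 6 to 8 weeks at injection, that were either wild type or carried a knockout of *Lmo7* in the whole body. Only the host was knocked out, so the tumor cells kept the gene. Live cells were sorted by flow cytometry without a gate for immune cells, and each genotype is 1 library on the 10x Genomics platform. How many mice a library holds is not given in the sources used here. The labels name a sort of about 10000 cells, and the files hold 16208 and 15163 barcodes called as cells, with 98582479 and 80648345 UMIs. With 1 library per genotype there is no replicate, so no difference between the genotypes was tested, and intervals between libraries cover counting error only. Values are given for the *Lmo7*+/+ library first and for the library labelled *Lmo7*-/- second.

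*Lmo7* itself (ENSMUSG00000033060, GRCm38 chromosome 14, 101729957 to 101934710) had 1 and 0 counts in Foxp3 T cells, at or under a floor of 3 counts. In macrophages (no *Cd3* UMI and at least 10 C1q UMIs), the deepest gate, it had 73 and 64 counts, or 2.80 and 2.50 counts per 1000000 UMIs (CPM). These counts do not check the genotype label, since 3′ tags may lie outside the deleted part, whose position is not given in the sources used here.

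Regulatory T cells restrain other immune cells. They carry the high-affinity IL-2 receptor chain CD25 (*Il2ra*) and take up IL-2, and through CTLA-4 they lower the costimulation that dendritic cells offer to other T cells. They also use cytokines such as IL-10 and latent TGF-beta, which GARP (*Lrrc32*) holds at the cell surface. In tumors they often carry receptors of activated T cells, such as ICOS, OX40, 4-1BB and the IL-33 receptor ST2 (*Il1rl1*), and they are a known obstacle to anti-tumor immunity.

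*Foxp3* UMIs per cell ran from 1 through a median of 2 to 7 in the *Lmo7*+/+ library and from 1 through a median of 2.5 to 8 in the other. The cells just inside the rule, with 1 *Foxp3* UMI, numbered 16 and 19, and those with 2 UMIs numbered 11 and 6. A *Cd4* UMI, which the rule did not ask for, was found in 27 and 30 cells. UMIs per cell ran from 1001 through a median of 1937 to 39007 in the first library and from 1064 through 1932 to 11308 in the second, with medians of 1127 and 1121 genes and of 3.96% and 3.84% mitochondrial UMIs. In depth and RNA quality the Foxp3 T cells of the 2 libraries therefore had close medians, apart from 1 cell of 39007 UMIs. Scrublet, a doublet caller, marked 2.90% and 2.6% of all cells kept, and 0 of 45 and 2 of 50 Foxp3 T cells. The libraries shared 279 barcodes, 1.72% and 1.84% of theirs, and none of these belonged to a Foxp3 T cell.

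The label was set beside *Il2ra*, *Ctla4*, *Ikzf4* (Eos, a partner of FOXP3) and *Izumo1r* (folate receptor 4), which took no part in the rule. They were chosen with earlier results of these data known, so their shares are a description. At least 1 of these 4 markers was found in 44 of 45 and 48 of 50 Foxp3 T cells (97.8% and 96%), and at least 2 of them in 39 and 41. Cells with 1 *Foxp3* UMI carried at least 1 of the markers in 16 of 16 and 19 of 19 cases. Cells just outside the rule, with the same gates but no *Foxp3* UMI, numbered 175 and 165, and 52 and 60 of them (29.7% and 36.4%) carried at least 1 of the markers. In the gates compared below, at least 1 of the markers was found in 65.2% and 69.2% of conventional CD4 T cells and in 45.9% and 54.4% of CD8 T cells, which differed in depth. At least 2 of them were found in 15 of 46 and 16 of 52 conventional CD4 T cells. The markers were thus found in nearly all Foxp3 T cells, but also in many other T cells.

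Of all 65 and 78 cells with a *Foxp3* UMI, the rule left out 5 and 13 without a *Cd3* UMI, 8 and 7 with a *Cd8a* or *Cd8b1* UMI, and 7 and 8 with more than 2 C1q UMIs. The cells with a CD8 UMI carried at least 1 of the 4 markers in 8 of 8 and 7 of 7 cases. Background was low. A *Foxp3* UMI was found in 2 of 4152 and 4 of 4685 macrophages (0.0482% and 0.0854%), which were deeper at medians of 5338.5 and 4630 UMIs, against 53 of 540 and 57 of 713 CD3 cells (9.81% and 7.99%). CD3 cells here have a *Cd3* UMI and at most 2 C1q UMIs.

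**Figure D1:**
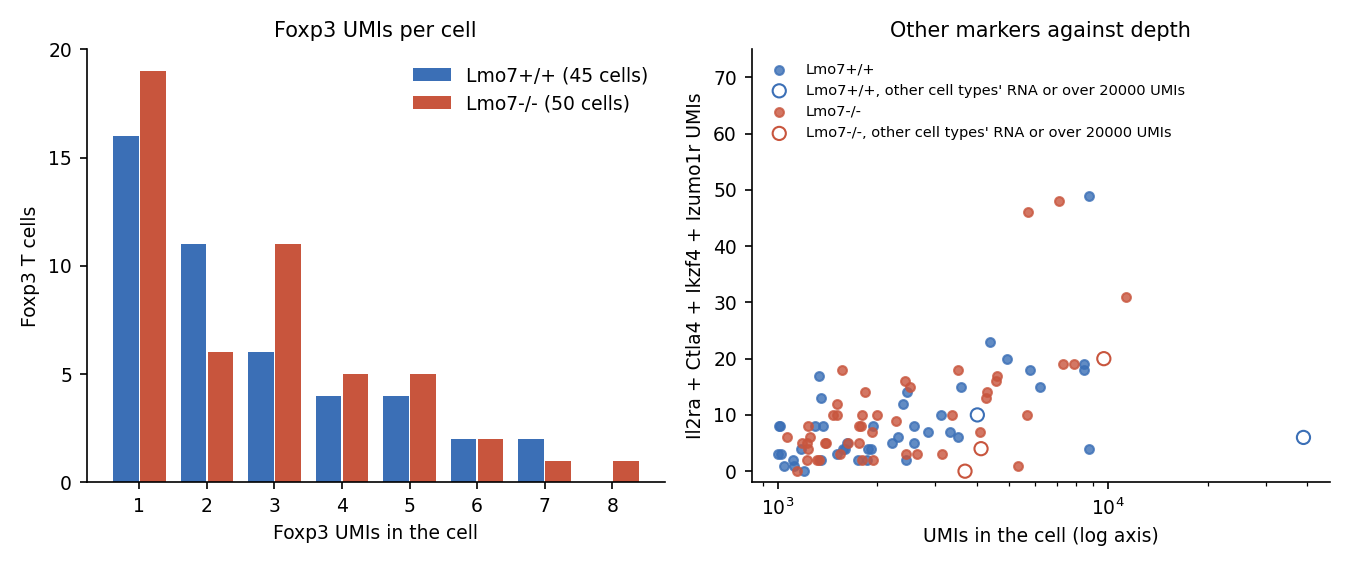
The left plot counts Foxp3 T cells by their number of *Foxp3* UMIs in each library, and the right plot sets the summed UMIs of *Il2ra*, *Ctla4*, *Ikzf4* and *Izumo1r* in each cell against the UMIs of the cell on a log axis. Cells with 1 *Foxp3* UMI are the most frequent class in both libraries (16 and 19), and the open circles are 5 cells with RNA of other cell types or more than 20000 UMIs, 1 of which stands apart at 39007 UMIs.

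These 5 cells carried RNA that Foxp3 T cells are not known for. They were found by a limit of 20000 UMIs or of 20 UMIs of the markers of other cell types, set after the data were seen. The *Lmo7*+/+ cell of 39007 UMIs held 5 *Foxp3*, 2 *Il2ra* and 4 *Ctla4* UMIs, only 1 *Cd3* UMI, and 106 UMIs of *Ccnd1*, 78 of *Cd63*, 53 of *Ctsl*, 52 of *Sox9* and 34 of *Cxcl1*. In the library labelled *Lmo7*-/-, a cell of 9705 UMIs held 7 *Foxp3*, 13 *Il2ra* and 8 *Cd3* UMIs beside 98 of *H2-Ab1*, 79 of *H2-Aa*, 24 of *Cd74*, 105 of *Cst3* and 6 of *Itgax*, genes of antigen presentation and of dendritic cells. Another of 3689 UMIs had 39 UMIs of *Col1a1* and 26 of *Col1a2*, fibroblast collagen genes, with 2 *Foxp3* UMIs and none of *Il2ra* or *Ctla4*. The 5 cells, 2 and 3, made up 26.2% and 11.5% of the UMIs of the Foxp3 T cells. Scrublet marked none of them. Total numbers of genes called, ratios between the libraries in Foxp3 T cells and the marker sums these cells carry are given with and without them. Numbers called within a gene list are mostly given with all cells. For calls without them, cells of the other gate past the same limits were also left out.

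Among the marker lists of other cell types, those of dendritic cells had the highest sum, and in the library labelled *Lmo7*-/- most of it came from 3 of the 5 cells. The 7 dendritic cell markers summed to 89 counts (542 CPM) and 300 counts (1963 CPM), led by *H2-Ab1* with 35 and 140 counts, while *Flt3* and *Xcr1* were at 0 in the *Lmo7*+/+ library. In conventional CD4 T cells, described below, the same markers stood at 4164 and 2650 CPM and in CD8 T cells at 2478 and 1839 CPM. Without the 5 cells they summed to 55 and 60 counts (454 and 443 CPM) in Foxp3 T cells, and with cells past the same limits left out they stood at 362 and 408 CPM in conventional CD4 T cells and at 353 and 332 CPM in CD8 T cells. The limits used these markers, so the sums without the cells are a description. The 10 macrophage markers summed to 41 and 30 counts (250 and 196 CPM), with *Mrc1* at 0 in both libraries, and the 4 monocyte markers to 27 and 22 counts, mostly *Plac8* (23 and 18); without the 5 cells these sums were 34 and 26, and 21 and 7. Fibroblast markers had 30 counts in 15 cells and 54 counts in 4 cells, led by *Col1a1* with 19 and 39, and 26 and 8 counts without the 5 cells. Endothelial markers had 9 and 8 counts, led by *Pecam1*. NK cell markers had 7 counts in 1 cell and 0 counts, gamma delta T cell markers 0 and 4, mast cell markers 0 and 6, and B cell markers 0 and 1. Neutrophil and tumor cell markers had 1 count in each library, and all 4 keratins of the tumor list were at 0. The 6 T cell markers, of which 3 are in the rule, summed to 446 and 643 counts, led by *Trac* with 183 and 277.

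Of all cells kept, 0.332% (exact binomial 95% interval 0.242% to 0.444%) were Foxp3 T cells in the *Lmo7*+/+ library, against 0.422% (0.313% to 0.555%) in the other library. The shares differed by 0.0893 percentage points, with a Newcombe interval from −0.0620 to 0.247. Among CD3 cells they were 8.33% (6.14% to 10.99%) and 7.01% (5.25% to 9.14%), a difference of −1.32 percentage points (−4.43 to 1.62). Among Foxp3 T cells and conventional CD4 T cells together they were 49.5% (38.8% to 60.1%) and 49.0% (39.0% to 59.1%). A difference in the share of Foxp3 T cells between the libraries was not detectable at this depth. Without the 5 cells the shares were 0.318% and 0.396% of all cells, and they were 9.05% and 7.51% of CD3 cells where CD3 cells past the same limits were also left out.

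Conventional CD4 T cells were the closest cells to compare with. They have a *Cd4* and a *Cd3* UMI, no UMI of *Foxp3*, *Cd8a* or *Cd8b1* and at most 2 C1q UMIs, and they numbered 46 and 52 with medians of 1652.5 and 1870.5 UMIs. The UMIs of each gate were added up within a library, to 164254 and 152811 UMIs for Foxp3 T cells and to 98692 and 168677 for conventional CD4 T cells. CPM is taken over that sum. Genes with at least 20 counts over both gates and libraries were tested. Where a gene reached this minimum through 1 gate alone, its call is a description. A gene was tested with edgeR's quasi-likelihood test with the library as a block, so the test compares gates within the same library, over 4 sums and with 1 residual degree of freedom. Of 4716 genes tested, 34 (0.721%) were higher and 75 (1.59%) lower in Foxp3 T cells at a Benjamini-Hochberg adjusted p under 0.05, and 421 passed at an unadjusted p under 0.05. Of the 109 genes called (2.31%), 105 differed in the same direction in both libraries.

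*Il2ra*, the CD25 chain of the IL-2 receptor (chromosome 2, 11642807 to 11693193), read 1297 and 1682 CPM in Foxp3 T cells and 324 and 320 CPM in conventional CD4 T cells. The 2 gates did not overlap, and the log2 difference was 2.19 (SE 0.34, edgeR adjusted p = 5.22e-08). The SE here and below was worked back from the log2 difference and the unadjusted p of the edgeR test. It is no separate measure of spread. In single cells *Il2ra* ran from 0 through a median of 3 to 38 UMIs and from 0 through 3 to 26. With cells thinned to a depth of 1500 UMIs each, 67.7% of 31 and 78.4% of 37 Foxp3 T cells had an *Il2ra* UMI (82.2% and 82.0% before thinning, with 14 and 13 shallower cells left out), against 1.04% and 0.437% of macrophages.

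*Ctla4*, the inhibitory receptor that removes CD80 and CD86, read 621 and 1152 CPM in Foxp3 T cells against 324 and 397 CPM, a log2 difference of 1.24 (SE 0.34, edgeR adjusted p = 0.0149). It was found in 67.7% and 62.2% of the thinned cells (73.3% and 76.0% before thinning), against 0.0254% and 0.115% of macrophages. *Izumo1r* read 219 and 301 CPM against 91.2 and 29.6 CPM, a log2 difference of 2.22 (SE 0.51, edgeR adjusted p = 0.00118). It was thus higher in both libraries, by 1.27 and by 3.34 on the log2 scale. *Ikzf4* read 256 and 242 CPM against 122 and 94.9 CPM, a difference of 1.19 that did not pass (edgeR adjusted p = 0.176). Its share of cells with a UMI was 38.7% and 29.7% after thinning and 42.2% and 36% before, and that of *Izumo1r* was 22.6% and 32.4% after thinning and 46.7% and 42.0% before. No thinned macrophage had a UMI of either gene.

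**Figure D2:**
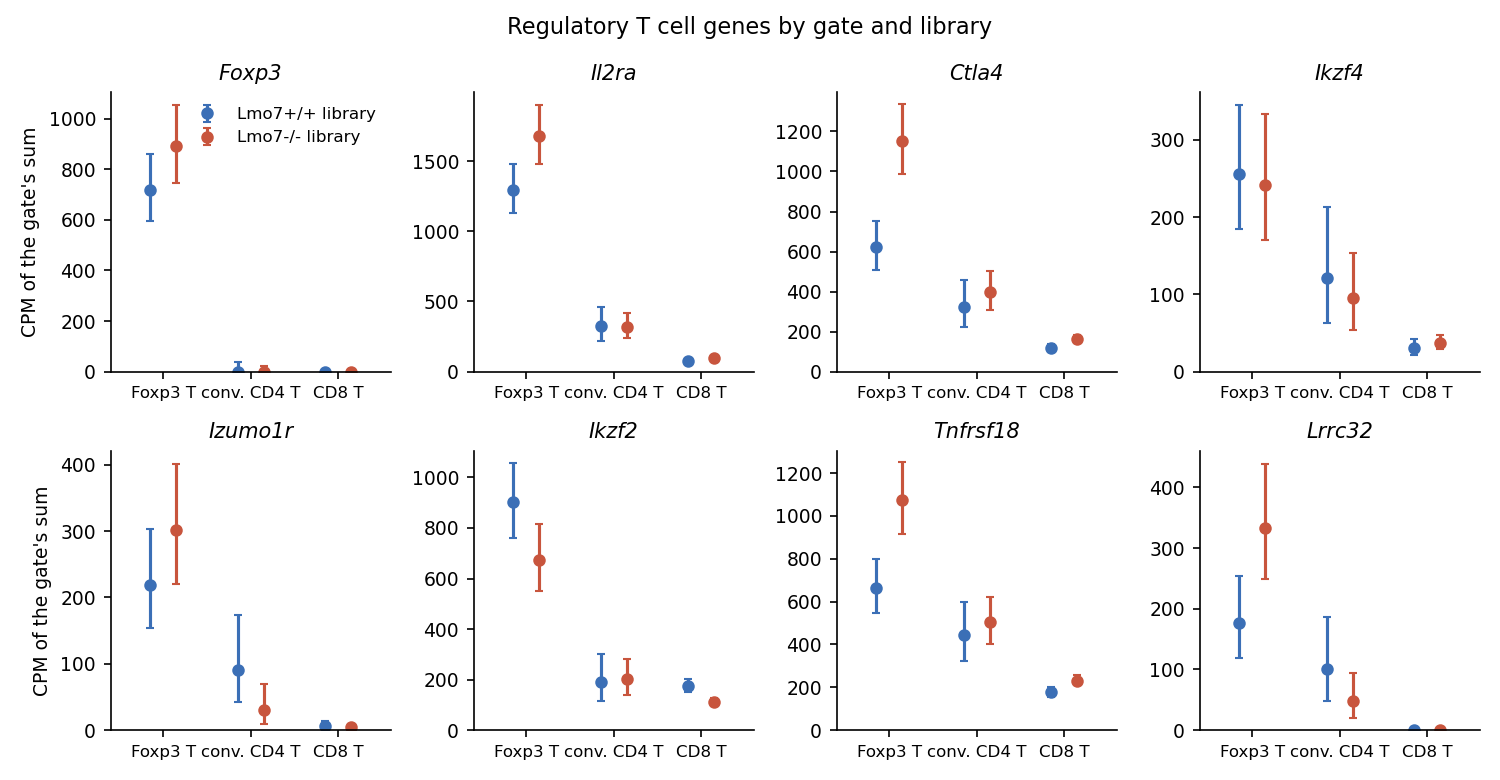
CPM of 8 regulatory T cell genes in Foxp3 T cells, conventional CD4 T cells and CD8 T cells of each library, with bars for the exact Poisson 95% interval of counting error. *Il2ra* stands at 1297 and 1682 CPM in Foxp3 T cells, above 324 and 320 CPM in conventional CD4 T cells and 74.6 and 94.9 CPM in CD8 T cells. *Foxp3* chose the cells and is shown as a description.

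Of the 12 genes listed for regulatory T cell identity 11 had enough counts, of which 6 were higher and 1 lower in Foxp3 T cells. Over all genes tested 0.721% were higher and 1.59% lower. The median log2 difference of the list was 1.40, against 0.02 over all genes tested. The lists used here and below were chosen with earlier results of these data known, so their numbers and medians are a description. Beside *Il2ra*, *Ctla4* and *Izumo1r*, the higher genes were *Ikzf2*, *Lrrc32* and *Socs2*. *Ikzf2* (Helios, a transcription factor linked to stable regulatory T cells) read 901 and 674 CPM against 193 and 202 CPM (log2 1.95, edgeR adjusted p = 2.85e-05). *Lrrc32* (GARP) read 177 and 334 CPM against 101 and 47.4 CPM (log2 1.82, adjusted p = 0.013), and *Socs2*, a feedback inhibitor of cytokine signaling, had a difference of 1.85 (adjusted p = 0.0272). The gene that was lower was *Nrp1* (neuropilin 1, often used to mark regulatory T cells from the thymus), with 4 and 1 counts against 12 and 11 (log2 −2.56, adjusted p = 0.0146). *Nrp1* reached the minimum of 20 counts only through the conventional CD4 T cells, so this call is a description. *Lrrc32* and *Izumo1r* reached it only through the Foxp3 T cells, so their calls are a description too. *Tnfrsf18* (GITR), *Capg* and *Itgb8* did not pass, *Tnfrsf18* at 664 and 1073 CPM against 446 and 504 CPM (adjusted p = 0.237), and *Gpr83* had no count in any of the 4 sums.

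By the rule for named genes, the highest log2 differences belonged to *Il1rl1* and *Klrg1*. *Il1rl1*, the IL-33 receptor ST2, had 19 and 38 counts (116 and 249 CPM) in Foxp3 T cells and 1 and 2 counts (10.1 and 11.9 CPM) in conventional CD4 T cells, a log2 difference of 3.99 (SE 0.72, edgeR adjusted p = 7.71e-06). Its counts came from 6 of 45 and 10 of 50 cells, so most Foxp3 T cells showed none. *Klrg1*, an inhibitory receptor of terminally differentiated lymphocytes, had 33 and 79 counts (201 and 517 CPM) against 1 and 8 (log2 3.56, SE 0.56, adjusted p = 7.06e-08), from 12 and 25 cells. Both genes were higher in each library.

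Homing and adhesion genes lay on both sides. *Itgae* (CD103, an integrin that binds E-cadherin) had 16 and 28 counts against 6 and 0 (log2 2.51, edgeR adjusted p = 0.00745), and *Ccr2*, the receptor of the chemokine CCL2, read 304 and 746 CPM against 111 and 219 CPM (log2 1.62, adjusted p = 0.00307). *Cxcr6*, the receptor of CXCL16, lay on the other side, with 8 and 6 counts against 52 and 74 (log2 −3.45, SE 0.48, adjusted p = 5.06e-10), and so did the integrin gene *Itga4* (log2 −2.24, adjusted p = 0.0146). Of 18 genes tested for chemokine receptors and homing, 3 were higher and 2 lower, beside 0.721% and 1.59% of all genes. The median was −0.08. The 2 lower genes, *Cxcr6* and *Itga4*, reached the minimum of 20 counts only through the conventional CD4 T cells, so their calls are a description. *Itgae* reached it only through the Foxp3 T cells, so its call is a description as well.

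Of the 18 effector cytokines, 6 had enough counts to be tested, and 4 of these were lower and none higher in Foxp3 T cells. Over all genes tested 1.59% were lower and 0.721% higher. Each of the 4 reached the minimum of 20 counts only through the conventional CD4 T cells, so this number is a description, as is the median log2 difference of −4.90. *Tnfsf8*, which encodes CD30 ligand, had no count in 95 Foxp3 T cells and 57 and 60 counts in 18 and 19 conventional CD4 T cells, at least 46.2-fold lower with a floor of 3 counts over both sums. *Csf2* (GM-CSF) had 1 and 0 counts against 25 and 39, a ratio of 75.9 with a counting interval from 13.1 to 3044. *Tnfsf11* (RANKL) had 1 and 2 counts against 40 and 49 (log2 −5.08, edgeR adjusted p = 2.39e-11). *Ifng*, the cytokine of type 1 immunity, had 2 and 2 counts against 57 and 27 (log2 −4.72, SE 0.65, adjusted p = 3.10e-10), of which 28 came from 1 conventional CD4 T cell of the *Lmo7*+/+ library. Foxp3 T cells were thus near 0 for all 4 genes in both libraries.

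The other named genes below the conventional CD4 T cells were *Klrc1* (the NK receptor NKG2A), with 0 and 1 counts against 24 and 33, *Ccl1*, a chemokine that binds CCR8, with 12 and 0 counts against 120 and 239, and *Nrgn*, *Ramp3* and *Lgals7*, with log2 differences of −4.16, −3.22 and −3.16. All of these genes had under 20 counts in the Foxp3 T cells. They reached the minimum only through the conventional CD4 T cells, so their values are a description. All 12 *Ccl1* counts of the Foxp3 T cells came from 1 cell, and 64 and 121 of those of the conventional CD4 T cells came from 1 cell in each library. *Sypl* and *Lamc1* reached the minimum only through the Foxp3 T cells, so their calls are a description. They were among the highest genes, each with an edgeR adjusted p of 0.0237. *Col1a2*, a collagen gene, was also among them with 21 and 29 counts against 2 and 4, but 17 and 26 of these counts came from 1 cell in each library, and without the 5 cells too few counts remained to test it.

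**Figure D3:**
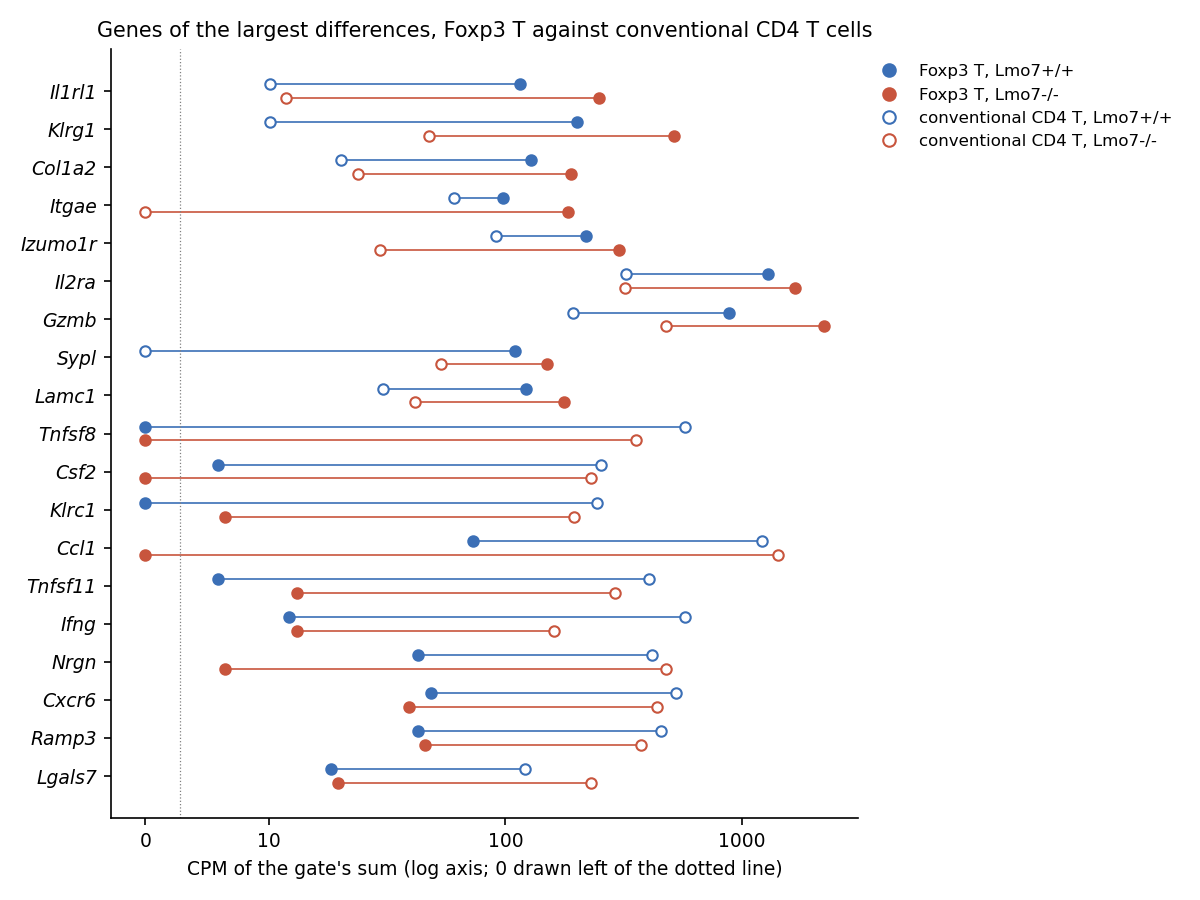
Levels of the highest and lowest named genes reported here, in Foxp3 T cells (filled) and conventional CD4 T cells (open), joined for each library, as CPM on a log axis with 0 drawn left of the dotted line. *Il2ra* and *Gzmb* keep their distance in both libraries, *Tnfsf8* is at 0 in the Foxp3 T cells of both, and *Itgae* is at 0 in the conventional CD4 T cells of the library labelled *Lmo7*-/-.

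*Gzmb* led the suppressive mediators. Granzyme B, a serine protease of killer lymphocytes that regulatory T cells also use, read 883 and 2218 CPM in Foxp3 T cells against 193 and 480.2 CPM in conventional CD4 T cells (log2 2.18, SE 0.34, edgeR adjusted p = 7.06e-08). A UMI was found in 27 of 45 and 39 of 50 Foxp3 T cells, against 10 of 4152 and 20 of 4685 macrophages. With each cell thinned to 1500 UMIs these were 17 of 31 and 24 of 37 Foxp3 T cells against 5 of 3937 and 8 of 4352 macrophages. With *Lrrc32*, given above as a description, and *Ctla4*, 3 of 17 tested were higher. Over all genes tested 0.721% were higher and 1.59% lower. *Nrp1*, given above as a description, and *Penk* (the enkephalin precursor) were lower, the latter at 560.1 and 975 CPM against 3101 and 2288 CPM (log2 −1.85, edgeR adjusted p = 1.96e-07). *Il10* had 11 and 17 counts against 9 and 6 and did not pass (log2 0.59, edgeR adjusted p = 0.898). *Areg* (amphiregulin, a growth factor of tissue repair) missed the threshold at 1.40 (adjusted p = 0.0516). It passed with cells past the limits above left out of both gates (adjusted p = 0.0126). The median of the list was 0.71.

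*Gzma* counted among the higher genes of the cytotoxic effectors beside *Gzmb*, but its 28 counts came from 1 cell of the *Lmo7*+/+ library. It reached the minimum only through this cell, so its call is a description. *Gzmc*, *Xcl1*, *Klrd1* and *Klrc1* were lower, which makes 2 higher and 4 lower of 13 tested, beside 0.721% and 1.59% of all genes. The 4 lower genes reached 20 counts only through the conventional CD4 T cells. The median of the list was 0.17. *Klrd1* (CD94, the partner of NKG2A) had 1 and 0 counts against 13 and 19 (log2 −4.97, edgeR adjusted p = 2.43e-06).

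Of 18 genes tested for effector regulatory T cells of tumors, 5 were higher (*Il1rl1*, *Klrg1*, *Itgae*, *Glrx* and *Tnfrsf9*) and 2 lower (*Il1r2* and *Cxcr6*). Over all genes tested 0.721% were higher and 1.59% lower, and the median of the list was 0.79. *Cxcr6* had under 20 counts in the Foxp3 T cells, so its call is a description. *Il1rl1*, *Klrg1* and *Itgae* had under 20 in the conventional CD4 T cells, so theirs are too. *Tnfrsf9* (4-1BB, a costimulatory receptor) read 1163 and 1557 CPM against 648 and 664 CPM (log2 1.02, edgeR adjusted p = 0.0374), and *Glrx* (glutaredoxin) 389.6 and 1001 CPM against 122 and 273 CPM (log2 1.77, adjusted p = 0.000316). *Il1r2*, the decoy receptor of IL-1, read 109.6 and 425 CPM against 567 and 628 CPM (log2 −1.34, adjusted p = 0.0149). Costimulatory and checkpoint receptors gave 2 higher of 12 tested, *Ctla4* and *Tnfrsf9*, and none lower, with a median of 0.64. *Icos*, the inducible costimulator, read 1509.9 and 3396 CPM against 1641.5 and 1607 CPM and did not pass (log2 0.48, adjusted p = 0.668).

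Among 31 transcription factors tested, 2 were higher and 3 lower, beside 0.721% and 1.59% of all genes. The median was −0.27. *Maf*, a factor that drives *Il10* in T cells, read 1096 and 1911 CPM against 669 and 557 CPM (log2 1.24, edgeR adjusted p = 0.00513), and *Ikzf2* was the other. *Tcf7* (TCF-1, of naive and memory T cells) had 1 and 0 counts against 10 and 10, *Bcl6*, the factor of follicular helper T cells, 2 and 2 counts against 11 and 12 (log2 −2.77, adjusted p = 0.0106), and *Bhlhe40*, a driver of cytokine production, read 493 and 406 CPM against 1034 and 1132 CPM (log2 −1.29, adjusted p = 0.00527). Of 10 genes tested for naive and central memory T cells, 1 was higher and 1 lower, the latter *Tcf7*, with a median of −0.28. *Tcf7* and *Bcl6* reached the minimum of 20 counts only through the conventional CD4 T cells, so their calls are a description.

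Cytokine receptors and IL-2 signaling gave 3 higher (*Il2ra*, *Socs2* and *Il1rl1*) and 2 lower (*Il1r2* and *Tgfbr2*) of 24 tested. Their median was −0.09, and over all genes tested 0.721% were higher and 1.59% lower. *Tgfbr2* had under 20 counts in the Foxp3 T cells and *Il1rl1* in the conventional CD4 T cells, so these calls are a description. T cell receptor signaling gave 1 lower of 16 tested, *Themis*, and a median of −0.24. *Themis* reached the minimum of 20 counts only through the conventional CD4 T cells, so this call is a description. It did not pass with cells past the limits above left out of both gates (edgeR adjusted p = 0.061). Cycling genes gave 1 higher of 18 tested, *Ccnb1* (cyclin B1), where 15 of 16 counts of the *Lmo7*+/+ library came from 1 cell. With cells past the limits above left out of both gates, *Ccnb1* did not pass (edgeR adjusted p = 0.205). It reached the minimum of 20 counts only through the Foxp3 T cells. The median of the cycling list was 0.64, and 17 of its 18 genes lay above 0. No gene passed among 18 interferon-stimulated genes (median 0.11), 12 NF-kB targets (−0.23) and 19 genes of glycolysis and hypoxia (0.13). With cells past the limits above left out of both gates, 1 interferon-stimulated gene was higher, beside 1.26% of all genes. The median of that list was then 0.46. Of 16 dissociation stress genes 3 were lower, *Fosb*, *Hspa1b* and *Btg2*, with a median of −0.31. What part handling of the tissue has in this was not tested. *Fosb* and *Hspa1b* had under 20 counts in the Foxp3 T cells, so their calls are a description.

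Without the 5 cells and the conventional CD4 T cells past the same limits, 50 of 3975 genes (1.26%) were higher and 68 (1.71%) lower, 2.97% in all, and 79 genes were called both ways. DESeq2 called 4 genes higher and 12 lower, and the 4 were *Klrg1*, *Il2ra*, *Gzmb* and *Ikzf2*.

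*Il1rl1*, the gene with the highest named difference, was examined at its promoter, since FOXP3 is a forkhead factor. Both strands were searched for the forkhead letters TGTTTAC in the window from 250 bases before to 50 bases after a start, 300 bases in all, with sequences from RefSeq (GRCm38.p6). Of 34 genes higher in Foxp3 T cells than in conventional CD4 T cells, 20 were matched with 26 promoters, and 1 of these 26 (3.85%) held the letters, against 1199 of 32851 (3.65%) of all promoters. That 1 was a start of *Il1rl1*, which has 2 starts in the table, on the plus strand at chr1:40439379-40439678, where the reverse complement begins 117 bases before the start. It is printed 5′ to 3′ with the match in capitals, to show where the letters stand.

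*Il1rl1* promoter: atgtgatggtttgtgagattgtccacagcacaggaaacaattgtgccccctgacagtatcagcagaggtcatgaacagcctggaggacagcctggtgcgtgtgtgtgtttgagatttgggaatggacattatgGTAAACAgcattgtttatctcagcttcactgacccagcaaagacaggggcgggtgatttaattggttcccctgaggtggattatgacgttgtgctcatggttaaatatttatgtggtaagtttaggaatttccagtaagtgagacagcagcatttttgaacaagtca

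The match is a description of the letters, not a binding site. Of 8 matched promoters of the identity list 0 held them.

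CD8 T cells were the second comparison. They have a UMI of *Cd8a* or *Cd8b1* and of a *Cd3* gene but none of *Foxp3* or *Cd4*, and they numbered 305 and 480, with 1192920 and 1686867 UMIs and medians of 2678 and 2577 UMIs per cell. They use the same Foxp3 T cell sums as the first comparison. Of 9428 genes tested, 227 (2.41%) were higher and 202 (2.14%) lower in Foxp3 T cells by edgeR's quasi-likelihood test, with a median log2 difference of −0.08 over all genes, and 426 of these 429 (4.55%) had the same direction in both libraries. Without the cells past the limits above, 355 (4.17%) were higher and 344 (4.04%) lower of 8518 tested, 8.21% in all, and 400 genes were called both ways. DESeq2 called 88 and 43.

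*Lrrc32* had the highest named difference to CD8 T cells. It had 29 and 51 counts in Foxp3 T cells and 1 and 1 in CD8 T cells, 177 and 334 CPM against 0.838 and 0.593 CPM (log2 8.22, SE 0.89, edgeR adjusted p = 4.07e-17). *Klrg1* had 33 and 79 counts against 6 and 3 (log2 6.71), and *Izumo1r* 36 and 46 against 8 and 8 (5.45). *Maf* read 1096 and 1911 CPM against 46.9 and 42.7 CPM (log2 4.98, adjusted p = 3.69e-21). *Il1rl1* (4.84), *Penk* (4.77), *Il2ra* (4.07), *Ccr2* (3.66) and the semaphorin gene *Sema4b* (3.53) were also among the highest. *Penk* was thus above CD8 T cells and below conventional CD4 T cells. *Lrrc32*, *Klrg1*, *Izumo1r* and *Il1rl1* had under 20 counts in the CD8 T cells and reached the minimum through the Foxp3 T cells. Their calls are a description.

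The 10 genes that the rule named below CD8 T cells, by fitted values, had no count in any of the 95 Foxp3 T cells. Their fitted differences are no measured distances, so bounds are given instead. *Gzmf* had 363 and 1624 counts in CD8 T cells (at least 72.9-fold lower in Foxp3 T cells, with a floor of 3 counts over both sums), *Gzmc* 114 and 699 (at least 29.8-fold) and *Gm156* 189 and 354 (at least 19.9-fold). *Gzmd*, *Gzme*, *Slc17a6*, *Atp8b4*, *Bend4*, *Klri2* and *Cd160* were also at 0. *Klrd1* and *Klrc1*, of the cytotoxic list, had 1 count each in Foxp3 T cells, ratios of 142.8 (counting interval 25.6 to 5645) and 127 (22.8 to 5023). *Gzmc*, *Gzmd*, *Gzme* and *Gzmf* are neighbouring granzyme genes of similar sequence, so reads may be shared between them. *Gzmb* differed from them, at 883 and 2218 CPM in Foxp3 T cells and 1015 and 2043 CPM in CD8 T cells (log2 −0.10, SE 0.16, edgeR adjusted p = 0.908). *Prf1*, the pore former that granzymes enter through, had 3 and 15 counts in Foxp3 T cells, 18.3 and 98.2 CPM against 273 and 471 CPM (log2 −2.81, SE 0.43, adjusted p = 2.19e-08). Of the 16 cytotoxic effectors 15 were tested, and 10 were lower and none higher, beside 2.14% and 2.41% of all genes. With cells past the limits above left out of both gates, 11 were lower and 1 higher. The CD8 T cells held 2879787 UMIs against 317065. Of the 10 genes lower with all cells, 7 had under 20 counts in the Foxp3 T cells and reached the minimum through the CD8 T cells. The number is therefore a description, as is the median of −1.93.

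Of 11 identity genes 10 were higher than in CD8 T cells, and *Nrp1* did not pass, with a median of 2.57. Over all genes tested 2.41% were higher and 2.14% lower. With cells past the limits above left out of both gates, 10 identity genes were higher and 1 lower. *Lrrc32* and *Izumo1r* reached the minimum of 20 counts only through the Foxp3 T cells, so their calls are a description. Effector genes of tumor regulatory T cells gave 13 higher and 1 lower (*Cxcr6*, a description with under 20 counts in the Foxp3 T cells) of 19 (median 1.75). Among them *Tnfrsf4* (OX40) read 737 and 1119 CPM against 104 and 126 CPM (log2 2.93, edgeR adjusted p = 1.54e-14), and *Icos* 1509.9 and 3396 CPM against 451 and 781 CPM (log2 1.87, adjusted p = 2.02e-12). *Ccr8*, a chemokine receptor of tumor regulatory T cells, had 4 and 8 counts against 3 and 7 (log2 3.40, adjusted p = 0.0252).

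Suppressive mediators gave 7 higher and 1 lower (*Prf1*) of 17 (median 0.42), beside 2.41% and 2.14% of all genes. Of the higher, *Lrrc32*, *Il10* and *Ebi3* had under 20 counts in the CD8 T cells, so their calls are a description. *Il10* had 11 and 17 counts against 3 and 0 (log2 6.13, edgeR adjusted p = 5.13e-07), *Ebi3*, a subunit of IL-35 and IL-27, 10 and 12 against 4 and 9 (log2 3.89, adjusted p = 7.05e-05), and *Areg* 20 and 98 against 31 and 74 (log2 3.23, adjusted p = 1.06e-10). Costimulatory and checkpoint receptors gave 6 higher and 3 lower of 17 (median 0.54), the lower ones being *Pdcd1* (PD-1), *Cd160* and *Cd96*. *Cd160*, *Cd96* and *Prf1* had under 20 counts in the Foxp3 T cells. They reached the minimum only through the CD8 T cells, so their calls are a description. *Pdcd1* read 177 and 124 CPM against 430.04 and 559.6 CPM (log2 −1.76, SE 0.32, adjusted p = 2.94e-06).

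Transcription factors gave 10 higher and 2 lower of 34 (median 0.40), beside 2.41% and 2.14% of all genes. *Rora* (log2 2.33, 499 and 497 CPM in Foxp3 T cells), *Gata3* (1.83, 219 and 196 CPM) and *Prdm1* (Blimp-1, 1.99) were among the higher, and *Nr4a2* (−1.88) and *Tox* (−1.71), which mark chronically stimulated T cells, were the lower. Chemokine receptors and homing gave 9 higher and 2 lower of 19 (median 0.88). Naive and central memory genes gave 4 higher and none lower of 12 (0.97). Cytokine receptors gave 6 higher and 4 lower of 26 (0.41), with *Il2rb*, the shared IL-2 and IL-15 receptor chain, among the lower (−1.03). *Tox*, *Cxcr6*, *Itga4*, *Il12rb2* and *Tgfbr2*, among the lower genes, had under 20 counts in the Foxp3 T cells. They reached the minimum only through the CD8 T cells, so their calls are a description. Effector cytokines gave 1 higher (*Ltb*) and 2 lower (*Ifng* and *Tnfsf11*) of 7 (−1.33). The 2 lower genes reached the minimum of 20 counts only through the CD8 T cells, so their calls are a description, as is this median. Interferon-stimulated genes gave 6 higher and none lower of 20 (0.62), for example *Ifi27l2a* (2.01). With cells past the limits above left out of both gates, 9 were higher (0.97), beside 4.17% of all genes. NF-kB targets gave 4 higher and none lower of 12 (0.38), and T cell receptor signaling 5 higher and 2 lower of 18 (−0.09). Glycolysis and hypoxia gave 1 higher of 20 (0.14), dissociation stress 2 higher and 2 lower of 16 (−0.26) and cycling none of 18 (0.16). *Fosb*, 1 of the lower stress genes, also reached the minimum only through the CD8 T cells.

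**Figure D4:**
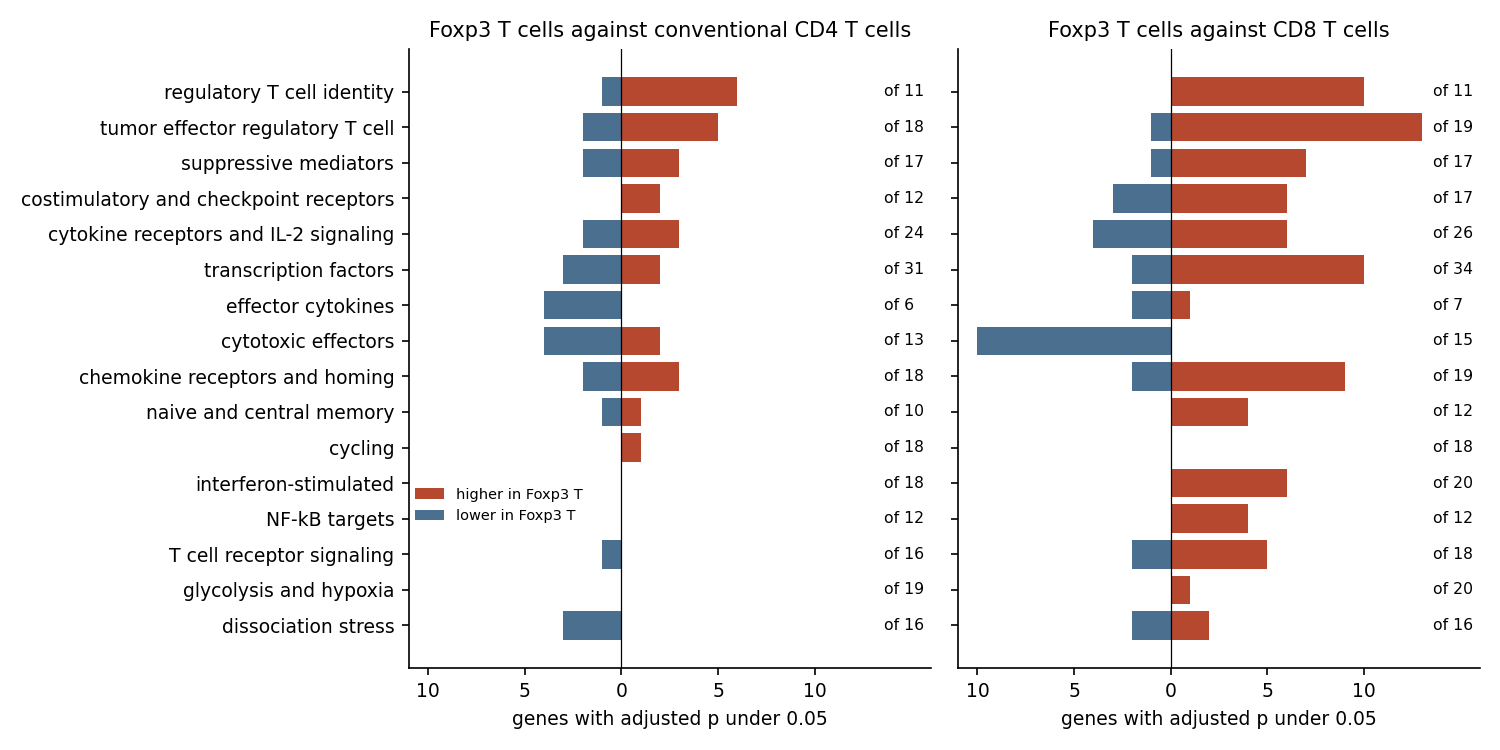
Number of genes of each of 16 lists that were higher (right) or lower (left) in Foxp3 T cells than in conventional CD4 T cells and CD8 T cells, at an edgeR adjusted p under 0.05, with the number tested beside each bar. Identity genes lie on the right in both plots (6 of 11 and 10 of 11), and cytotoxic effectors on the left against CD8 T cells (10 of 15). Of all genes tested, 0.721% were higher and 1.59% lower against conventional CD4 T cells. Against CD8 T cells these shares were 2.41% and 2.14%.

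The share of cells with UMIs of at least 3 of the 18 cycling genes was 58.1% of 31 Foxp3 T cells (39.1% to 75.5%) and 62.2% of 37 (44.8% to 77.5%) after thinning to 1500 UMIs, and 53.3% and 52.0% before thinning. After thinning, conventional CD4 T cells stood at 40% of 25 and 41.2% of 34, CD8 T cells at 58.1% and 55.8%, and macrophages at 40.1% and 32.9%. Before thinning they stood at 37.0% and 50%, 65.9% and 61.5%, and 69.5% and 58.0%, in the same order. *Mki67* had a UMI in 14 and 17 Foxp3 T cells and read 262 and 347 CPM. The intervals of Foxp3 T cells and conventional CD4 T cells overlapped in both libraries.

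Between the libraries, levels in Foxp3 T cells were compared as the log2 ratio of CPM of the library labelled *Lmo7*-/- over the *Lmo7*+/+ library, with the exact binomial interval of the split of counts and no test. Of 1134 genes with at least 50 counts, 39 (3.44%) were at least 2 times higher and 37 (3.26%) at least 2 times lower in the library labelled *Lmo7*-/-, 6.7% in all. Without the 5 cells, 20 (2.22%) and 11 (1.22%) of 901 genes were. The 5 cells thus carried much of the difference, above all its lower side.

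*Areg* had the highest log2 ratio. It had 20 counts in 9 of 45 cells and 98 counts in 25 of 50 cells, 122 and 641 CPM, or 2.40 (1.69 to 3.17) with all cells and 2.02 without the 5 cells. *Il1r2* had 18 and 65 counts in 9 and 18 cells (1.96, and 1.95 without the 5 cells), and *Rilpl2*, a regulator of cilium proteins, 10 and 42 counts in 8 and 27 cells (2.17 and 1.84). *Ccl4*, an inflammatory chemokine, had 17 and 62 counts (1.97 and 1.80), of which 27 came from 1 cell. *Fgl2*, a secreted suppressor of immune responses, *Satb1*, a chromatin organizer, and *Mapre2* had ratios of 1.93, 1.69 and 1.55, and 1.38, 1.35 and 1.28 without the 5 cells. These 7 genes kept their direction without the 5 cells.

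Antigen presentation genes rested more on these cells. *H2-Ab1* had 35 and 140 counts, a log2 ratio of 2.104, but 98 of the 140 came from 1 cell, and without the 5 cells the ratio was 0.55. *H2-Aa* had 34 and 103 counts with 79 from 1 cell, and its ratio went from 1.70 to −1.62. *Cd74*, the invariant chain, went from 2.04 to 1.20 (12 and 46 counts, 24 from 1 cell). The limit on RNA of other cell types used *H2-Ab1*, *H2-Aa* and *Cd74*, so their ratios without the 5 cells are a description.

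On the lower side, *Cd63*, a tetraspanin of lysosomes, had 99 and 11 counts (−3.07), and 78 of the 99 came from 1 cell; the ratio was −1.38 without the 5 cells. For the lysosomal protease gene *Ctsl* the ratio went from −2.55 to −0.16, for *Sox9* from −1.50 to 0.65 and for *Cdk4*, a kinase of the G1 phase, from −1.38 to −0.25. For *Cyp51* and *Psat1*, enzymes of sterol and serine synthesis, it went from −2.05 to −0.87 and from −1.94 to −0.84, and for *Lamp1* and *Nme1* from −1.76 to −1.01 and from −1.41 to −0.78. *Itgb1*, the integrin beta 1 chain, had 37 and 13 counts (−1.40, and −1.41 without the 5 cells), 18 of the 37 from 1 cell, but its ratio was 0.00778 with cells thinned to 1500 UMIs. *Sgk1*, a kinase induced by salt and glucocorticoids, had 38 and 13 counts in 19 and 11 cells (−1.44 and −1.27).

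**Figure D5:**
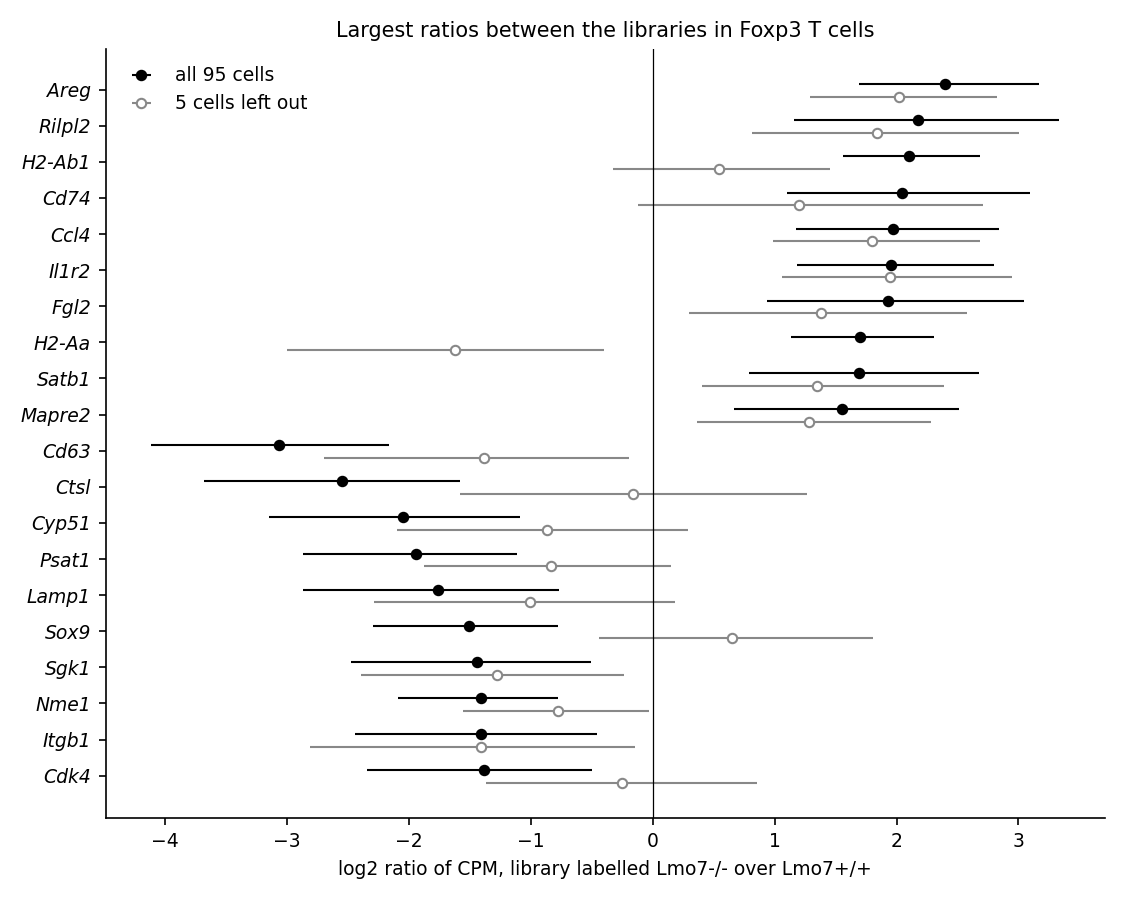
Log2 ratio of CPM in Foxp3 T cells, library labelled *Lmo7*-/- over *Lmo7*+/+, for the 10 highest and 10 lowest genes with at least 50 counts. Filled points use all 95 cells, open points leave out 5 cells with RNA of other cell types or above 20000 UMIs, and bars are 95% intervals of counting error. *Areg* and *Il1r2* stay in place (2.40 and 2.02, 1.96 and 1.95), while *H2-Aa* and *Sox9* cross 0. *H2-Ab1*, *H2-Aa* and *Cd74* were among the markers that set the limit, so their open points are a description.

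For *Foxp3*, which chose the cells, the level was 718 and 890 CPM (log2 ratio 0.31, interval −0.06 to 0.68), given as a description. *Il2ra* had a ratio of 0.38 (0.11 to 0.64). These ratios were 0.01 and 0.09 without the 5 cells. Summed over the identity list, 799 and 993 counts gave 0.42 (0.28 to 0.55), and 0.14 without the 5 cells. *Ctla4* had a ratio of 0.89 (0.53 to 1.26) and *Ikzf2* of −0.42 (−0.80 to −0.05), and both kept their sign without the 5 cells (0.65 and −0.70).

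The effector genes of tumor regulatory T cells summed to 994 and 1654 counts, a log2 ratio of 0.84 (0.72 to 0.95), or 0.56 without the 5 cells. Of the 15 with at least 20 counts, 6 were at least 2 times higher in the library labelled *Lmo7*-/- and none 2 times lower, against 5.55% and 6.04% of 2881 genes with at least 20 counts. Without the 5 cells 4 were higher and 1 lower, against 4.53% and 4.32% of 2407 genes. *Icos* had 248 and 519 counts, found in 43 of 45 and 50 of 50 cells, with a ratio of 1.17 (0.95 to 1.39) and of 0.86 without the 5 cells. In conventional CD4 T cells its ratio was −0.03 and in CD8 T cells 0.79. *Klrg1* had a ratio of 1.36 (0.76 to 2.00) in Foxp3 T cells and of 1.09 without the 5 cells. *Gzmb* had 145 and 339 counts and a ratio of 1.33 (1.04 to 1.62), or 1.03 without the 5 cells, beside 1.32 in conventional CD4 T cells and 1.01 in CD8 T cells. *Gzmb* was thus higher in the library labelled *Lmo7*-/- in all 3 gates, with 1 library on each side.

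Among the other lists, the log2 ratio of the summed counts was 0.64 for suppressive mediators, 0.76 for costimulatory and checkpoint receptors and 0.91 for cytotoxic effectors, and 0.68, 0.46 and 0.65 without the 5 cells. *Gzmb*, also a suppressive mediator, held 145 of the 376 and 339 of the 658 counts of the cytotoxic effectors. With all cells, the ratio of that list was 0.10 in conventional CD4 T cells and 0.40 in CD8 T cells. Ratios below are given with all cells and then without the 5 cells. Cytokine receptors had 0.44 and 0.16, transcription factors 0.29 and −0.00, chemokine receptors and homing 0.37 and 0.18, and naive and central memory genes 0.52 and 0.46. Interferon-stimulated genes had 0.42 and 0.21, T cell receptor signaling 0.43 and 0.12, and cycling 0.24 and 0.42. NF-kB targets had −0.16 and −0.34, glycolysis and hypoxia −0.16 and −0.16, dissociation stress −0.20 and −0.24, and effector cytokines −0.03 and −0.27. The median ratio over the 2881 genes with at least 20 counts was 0.01.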

How the data were processed

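Live cells of 1 MC38 tumor library per genotype were profiled by 10x Genomics 3′ single-cell RNA sequencing. The counts deposited by the authors are UMIs per gene and barcode, not normalized, and were made with Cell Ranger 2.1.1 per the submitters' processing notes, which also name the mm10 build. Both files hold barcodes called as cells. Depth was 98582479 and 80648345 UMIs per library.

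From these counts, cells were filtered, the gates given in the report were set in raw UMIs, and counts were summed per gate and library. No clustering was run. Gates were compared with edgeR 4.0.16 (R 4.3.3) by its quasi-likelihood test with TMM factors and the library as a block, on genes with at least 20 counts over the 4 sums and with Benjamini-Hochberg adjustment over all genes tested. Genes of the gates were left out of calls. The script was tested on simulated data made for each comparison. Among 4723 genes of the comparison with conventional CD4 T cells it recovered 83.5% of 4-fold and 14.3% of 2-fold changes, and among 9438 genes of that with CD8 T cells 58.6% and 7.07%, with 1 false call each. Small changes were thus mostly missed in the simulated data. These used 1 fixed dispersion and the same gene levels in both libraries, and did not model single cells. The dispersion fitted to the real sums was 0.0456 against conventional CD4 T cells, above the simulated one, and 0.0185 against CD8 T cells. Recovery and false calls in the real data may therefore differ.

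Shares carry exact binomial 95% intervals, levels exact Poisson intervals and differences of shares Newcombe intervals, and all cover counting error only. Genotypes were compared by ratios of CPM, with no test. Cells past a limit on depth or on RNA of other cell types were left out as an alternative chosen after seeing the data. Named genes were the 10 highest and 10 lowest by log2 difference among genes called, with the same sign in both libraries and at least 50 counts, for the genotype ratio the 10 highest and lowest with at least 50 counts, and members of 16 gene lists. Receptor segment, ribosomal and mitochondrial genes were left out. Some genes that meet the rule are not reported here. Cell types were checked with 14 marker lists. The members and lists were chosen with earlier results of these data known. Doublets were kept, and their removal with Scrublet (scanpy 1.11.5) was an alternative. Other alternatives were filters, gates, DESeq2 1.42.0, scaling, count minimums and thinning. Gene positions are from GENCODE (GRCm38).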

Additional observations from a re-analysis of the deposited data

Results flagged for a closer look

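The following 6 genes had a log2 ratio between the libraries (labelled *Lmo7*-/- over *Lmo7*+/+) in Foxp3 T cells opposite to that in another T cell gate. These differences between gates were not tested, and there is 1 library per genotype. *H2-Ab1* had a ratio of 2.104 in Foxp3 T cells, −0.61 in conventional CD4 T cells and −0.48 in CD8 T cells. *H2-Aa* had 1.70, −0.70 and −0.44. *Cd74* had 2.04 in Foxp3 T cells and −0.66 in conventional CD4 T cells. *Cd63* had −3.07 in Foxp3 T cells and 1.11 in conventional CD4 T cells. *Sox9* had −1.50 in Foxp3 T cells and 0.28 in CD8 T cells. *Sgk1* had −1.44 in Foxp3 T cells and 1.98 in conventional CD4 T cells. The ratios were also taken in each gate without the T cells that carried RNA of other cell types or over 20000 UMIs. That limit used *H2-Ab1*, *H2-Aa* and *Cd74* among its markers, so the values of these genes without the cells are a description. *H2-Ab1* then had 0.55 in Foxp3 T cells, −0.26 in conventional CD4 T cells and −0.45 in CD8 T cells. *H2-Aa* had −1.62, 0.40 and 0.21, each of the opposite sign to its ratio with all cells. *Cd74* had 1.20 in Foxp3 T cells and 0.29 in conventional CD4 T cells, no longer opposite. *Cd63* had −1.38 and 0.14 in these gates, and *Sgk1* −1.27 and 1.27. In CD8 T cells *Cd63* went from −0.09 to −1.05, the same sign as in Foxp3 T cells. *Sox9* had 0.65 in Foxp3 T cells and −0.27 in CD8 T cells, both of the opposite sign to the ratio with all cells. Of the counting intervals of these ratios, those of *H2-Aa*, *Cd63* and *Sgk1* in Foxp3 T cells and of *H2-Ab1* and *Cd63* in CD8 T cells left out 0.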

How the results depend on the processing

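With 45 and 50 cells and 1 library per genotype, the data limit what can be seen: genes at a few counts rest on few cells, and no difference between genotypes has a replicate. No paired analysis was possible because each genotype has 1 library; in the comparisons of gates the library is already the block. Leaving out a library left no residual degree of freedom, so counts of calls without it could not be made. The named genes were chosen for having the same sign in both libraries, so their values in each library are no check of direction.

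Against conventional CD4 T cells (34 higher, 75 lower), the stricter filter on cells gave 10 and 27, at least 2 *Foxp3* UMIs 14 and 42, and DESeq2 4 and 12. A *Cd4* UMI in every Foxp3 T cell gave 17 higher, library totals in place of TMM 21 higher, and thinning to 1500 UMIs 48 lower. Against CD8 T cells (227 higher, 202 lower), the stricter filter gave 138 higher, at least 2 *Foxp3* UMIs 135 and a *Cd4* UMI 117. DESeq2 gave 88 and 43, thinning 77 and 76, and leaving out the doubted cells 355 and 344. For the genotype ratio (39 higher, 37 lower), no C1q UMI gave 24 lower, thinning 5 and 2, at least 100 counts 12 and 7, and leaving out the doubted cells 20 and 11. Thinning, the gates and the count minimum use fewer cells, counts or genes; for the other settings the cause was not tested.

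The log2 ratio of *H2-Aa* was reversed without C1q UMIs (−0.30), with a *Cd4* UMI (−0.23) and without the doubted cells (−1.62), that of *Sox9* without the doubted cells (0.65), and those of *Ctsl* (0.16) and *Itgb1* (0.00778) after thinning. *H2-Aa* was itself among the markers by which the doubted cells were chosen. For values of single named genes, 243 lost their call under an alternative, 57 of them with DESeq2 and 42 after thinning, 35 ratios or shares moved outside their interval, and *Ikzf4* (1 value) gained a call after thinning. Values with a library left out not counted, 1432 kept direction and side of the threshold or stayed within their interval. The other counts and shares moved by less than 1.5 times or within their intervals, 68 in all.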
